A study of Mus musculus with 6 samples.

Results

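Antibody light chain genes were examined in untreated colon tissue of mice lacking Pum2, an RNA-binding protein that represses target mRNAs, and of WT mice. The series holds 6 libraries, 3 from WT mice and 3 from Pum2-/- mice, made from total RNA of colon. The knockout line was kept on the FVB background, and these mice were not given DSS, the agent used elsewhere in the study to induce colitis. The colitis experiment used males aged 8 to 10 weeks with untreated mice as its controls, and the methods place WT and Pum2-/- littermates in shared or randomly assigned cages, but neither source gives age, sex or litter for the 6 libraries themselves, nor how many animals went into each. The light chain genes were all rows whose symbol begins with Igkv, Iglv or Iglc, 8 of the 68 genes analysed. The rows had been selected by the submitters on the difference between these same WT and Pum2-/- libraries, so the contrast between the genotypes chose the members. Their values are therefore described here without a test.

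An antibody is built from identical heavy chains paired with identical light chains, and each light chain is of either the kappa or the lambda type. In every developing B cell a variable (V) segment is joined to a joining segment of the same locus, and the joined exon is spliced to a constant (C) exon. The V segment forms most of the antigen-binding domain, while the constant exon is common to every light chain made from that part of the locus. In the mouse most antibodies carry kappa chains, whose locus offers many V segments, and the lambda locus has only a few. Plasma cells, the antibody-secreting descendants of B cells, reside in the lamina propria of the colon, and a plasma cell clone transcribes its own light chain at a very high rate.

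The 8 genes comprised 6 kappa V genes, Igkv1-99, Igkv4-90, Igkv4-78, Igkv3-3, Igkv1-132 and Igkv9-124, together with the lambda V gene Iglv1 and the lambda constant gene Iglc1. Iglv1 and Iglc1 form the V and C parts of the lambda 1 chain. Positions are from the GENCODE M21 annotation of GRCm38, and the build used by the authors is not given in the sources used here. The reference sequence is not from FVB mice. The kappa genes lie on chromosome 6, each with 2 exons, and the lambda genes lie on chromosome 16, so none shares chromosome 12 with Pum2. Iglv1 (ENSMUSG00000076934) has 2 exons at chr16:19085017-19085500 on the minus strand. Iglc1 (ENSMUSG00000105906) is a single exon at chr16:19061618-19062071 on the same strand.

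The V segments of a family are similar in sequence, which bears on how short reads can be assigned to them. The last 120 coding bases of the 6 genes whose genotypes were separated are given below, since this stretch holds the end of the V segment, next to the join, or the end of the constant exon with its stop codon. They are written 5′ to 3′ on the coding strand, as read from the GENCODE M21 transcripts, and capitals mark bases that differ from the most similar other annotated kappa or lambda gene. The first lines are Iglv1 (chr16:19085017-19085136, minus strand) and its closest relative Iglv2 (chr16:19260401-19260520, minus strand), in which the capitals mark the differences between the pair. Iglc1 (chr16:19061752-19061871, minus strand) is marked against Iglc4.
Iglv1: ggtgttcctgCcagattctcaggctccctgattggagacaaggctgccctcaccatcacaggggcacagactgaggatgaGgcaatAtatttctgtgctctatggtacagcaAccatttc
Iglv2: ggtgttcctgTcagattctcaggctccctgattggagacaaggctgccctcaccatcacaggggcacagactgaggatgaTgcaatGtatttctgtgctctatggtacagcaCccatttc
Iglc1: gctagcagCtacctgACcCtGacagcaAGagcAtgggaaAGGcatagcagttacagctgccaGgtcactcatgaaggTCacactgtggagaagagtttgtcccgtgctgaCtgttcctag

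The kappa stretches are Igkv1-99 (chr6:68542303-68542422, plus strand, marked against Igkv1-110), Igkv4-90 (chr6:68807179-68807298, minus strand, against Igkv4-59), Igkv9-124 (chr6:67942074-67942193, minus strand, against Igkv9-120) and Igkv1-132 (chr6:67760294-67760413, plus strand, against Igkv1-131).
Igkv1-99: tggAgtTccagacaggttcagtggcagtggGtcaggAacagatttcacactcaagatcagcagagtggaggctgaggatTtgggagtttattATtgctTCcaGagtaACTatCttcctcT
Igkv4-90: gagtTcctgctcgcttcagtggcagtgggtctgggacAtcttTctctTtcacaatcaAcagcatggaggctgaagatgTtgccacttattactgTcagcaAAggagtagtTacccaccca
Igkv9-124: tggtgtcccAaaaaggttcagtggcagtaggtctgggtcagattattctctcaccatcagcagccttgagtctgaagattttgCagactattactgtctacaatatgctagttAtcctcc
Igkv1-132: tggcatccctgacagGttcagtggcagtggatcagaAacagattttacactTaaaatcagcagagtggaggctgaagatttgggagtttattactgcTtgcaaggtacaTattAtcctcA

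Over the whole coding sequence, Igkv1-99 stood furthest from its closest relative, with 83.1% identity and 61 differences in 362 aligned positions, and Iglc1 followed with 85% and 48 differences in 320. Igkv4-90 was 90.1% identical to Igkv4-59. The other 5 genes were 94.2% to 96.9% identical to their closest relative, with Iglv1 and Iglv2 the most alike, at 11 differences in 351 positions. Every window of 50 coding bases was then looked up in the annotated transcripts of all other genes. No window of Igkv4-90 or Iglc1 occurred in another gene, and 10 of the 313 windows of Igkv1-99 did. Iglv1 shared 76 of 302 windows with Iglv2 alone. Igkv1-132 shared 44 of 313 windows, Igkv9-124 shared 95 of 304 and Igkv3-3 shared 99 of 310. Igkv4-78 was the least distinct, with 209 of its 309 windows, or 67.6%, present in at least 1 of 19 other Igkv4 genes. The read length and the treatment of reads with several matches are not given in the sources used here. Exact matches of 50 bases therefore do not bound how far reads of a relative entered a value. This holds also for the genes without shared windows. Among themselves the 6 kappa genes were 57.1% to 88.3% identical, and the most similar pair was Igkv4-90 and Igkv4-78.

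The unit is a normalized signal per gene and library, never negative, whose scaling method is not stated. Total depth is unknown, so no counting interval or floor is given. All 26 values between 0.5 and 10 in WT replicate 2 lay within 0.08 of a step from whole multiples of 1.01. The same held for all 22 such values in Pum2-/- replicate 1, with a step of 0.98. Scaled read counts give such a pattern, with 1 step for 1 read. Below that range, however, WT replicate 2 had Igkv4-78 at 0.00134 and Saa3 at 0.0031, values above 0 that whole steps do not give. The other libraries kept to such steps less closely. Reads were therefore not recovered, and some low values are given below in steps only. The targeted gene Pum2 had a signal of 17.8, 16.1 and 16.5 in WT replicates 1 to 3 and of 2.94, 2.68 and 1.45 in Pum2-/- replicates 1 to 3, as the labels state.

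Of the 8 light chain genes, 3 had a higher mean and 5 had a lower mean in Pum2-/- mice. The 2 lambda genes and the kappa genes Igkv9-124 and Igkv1-132 were lower in every Pum2-/- library than in every WT library. The kappa genes Igkv1-99 and Igkv4-90 were higher in every Pum2-/- library. For Igkv4-78 (higher mean) and Igkv3-3 (lower mean) the genotypes overlapped. Thus 6 of 8 genes were separated, against 86.8% of all 68 genes analysed, with 2 wholly above WT (44.1% of all genes) and 4 wholly below (42.6% of all genes). These shares belong to a list kept for its difference, and nothing is read from them about the light chain genes. Differences between genotypes are given as the mean of log2(signal + 1) in Pum2-/- libraries minus that in WT libraries (here called the log2 difference). For genes with low values this scale gives less than the true fold. The median difference was -2.38 over the 8 genes and -0.15 over all genes, and its median size was 3.32 against 2.40. The median was 0.17 over the 6 kappa genes and -4.31 over the 2 lambda genes. No kappa gene was near 0.17, as the smallest difference among them was 2.16 in size. The median of the 8 genes therefore does not describe the kappa genes, of which 3 had higher and 3 had lower means. Among the 10 genes with the largest differences of the 68, 4 were light chain genes and 4 were heavy chain genes. Light and heavy chain genes made up 8 and 9 of all 68. The 4 light chain genes include Iglv1 and Iglc1, which can be parts of 1 transcript, and Igkv1-132, with 98.7% of its signal in 1 library. As the list was kept for this difference, nothing is read from these counts. In bulk tissue, fewer cells of a type and less RNA per cell cannot be told apart.

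**Figure D1:**
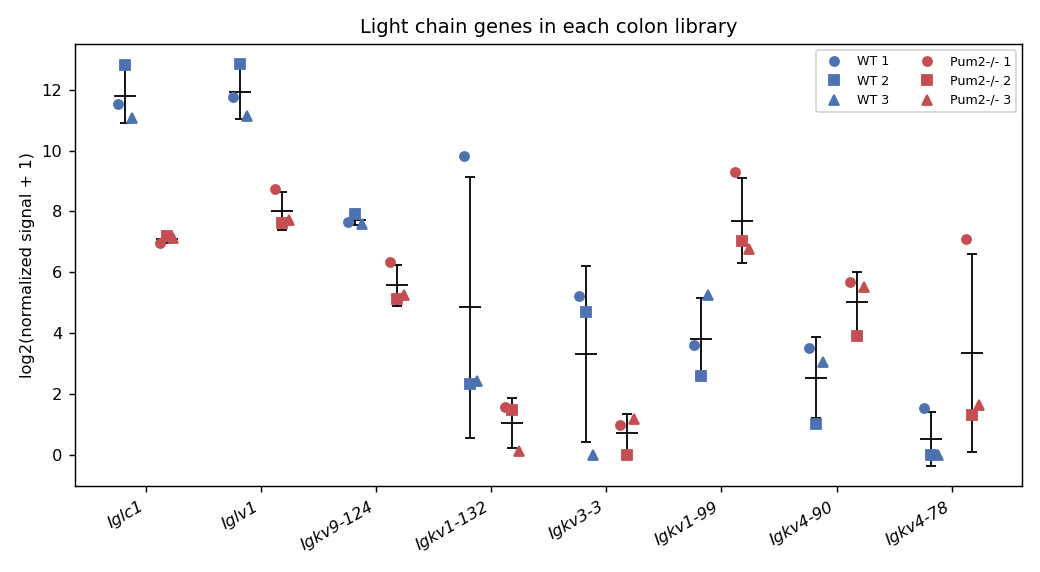
Normalized signal of the 8 light chain genes on the log2(signal + 1) scale in WT (blue) and Pum2-/- (red) colon libraries. Points are libraries, with circles, squares and triangles for replicates 1, 2 and 3, and the black bars are the mean and SD of 3 libraries. Both lambda genes separate widely, while the difference of Igkv1-132 and of Igkv4-78 comes largely from 1 library each.

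The lambda genes showed the widest gap. Iglc1, the constant part of the lambda 1 chain, had a signal of 2976, 7201 and 2165 in WT replicates 1, 2 and 3. In Pum2-/- replicates 1, 2 and 3 it was at 123, 146 and 139. The lowest WT library thus lay far above the highest Pum2-/- library, and the Pum2-/- libraries were close to each other. Averaged by genotype, Iglc1 signal was 4114 ± 2704 (SD, n = 3) for WT against 136 ± 11.7 (SD, n = 3) for Pum2-/-, with a log2 difference of -4.72 (standard error 0.524). This was the second largest difference among the 68 genes analysed. The ratio of the highest to the lowest library was 3.33 in WT mice and 1.19 in Pum2-/- mice.

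Iglv1, the V segment of the same chain, followed the same order of libraries in WT mice, with 3466, 7355 and 2260.3 in replicates 1, 2 and 3. Its signal in the Pum2-/- libraries was 426, 194 and 209. Again no library of one genotype reached the other, and WT replicate 2 was the highest. Its mean signal of 4360.4 ± 2663 (SD, n = 3) in WT mice stood against 277 ± 129.96 (SD, n = 3) in the knockouts, with a log2 difference of -3.89 (standard error 0.614). The sum of both lambda genes ran from 4425 to 14556 in WT libraries and from 340.2 to 549.5 in Pum2-/- libraries, a log2 difference of -4.21 (standard error 0.555).

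Iglv1 and Iglc1 can be parts of 1 transcript, and their ratio within a library does not change when a library is scaled by 1 factor. Whether the deposited signal was scaled in that way is not stated. Signal was not divided by length here, so the ratio is compared between libraries only. In WT replicates 1, 2 and 3 the Iglv1 signal was 1.16, 1.02 and 1.04 times the Iglc1 signal. In the Pum2-/- libraries the ratio was 3.46, 1.33 and 1.51. The ratio was near 1 in all WT libraries and higher in all Pum2-/- libraries, so Iglc1 was lower than WT by more than Iglv1 was. The mean log2 ratio differed by 0.83 between the genotypes, and by 0.40 without Pum2-/- replicate 1. Iglv1 shares windows with Iglv2, whereas Iglc1 shares none with another gene, and the part of such shared reads in the ratio was not tested. Iglv2, Iglc2 and Iglc3 were not analysed here.

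**Figure D2:**
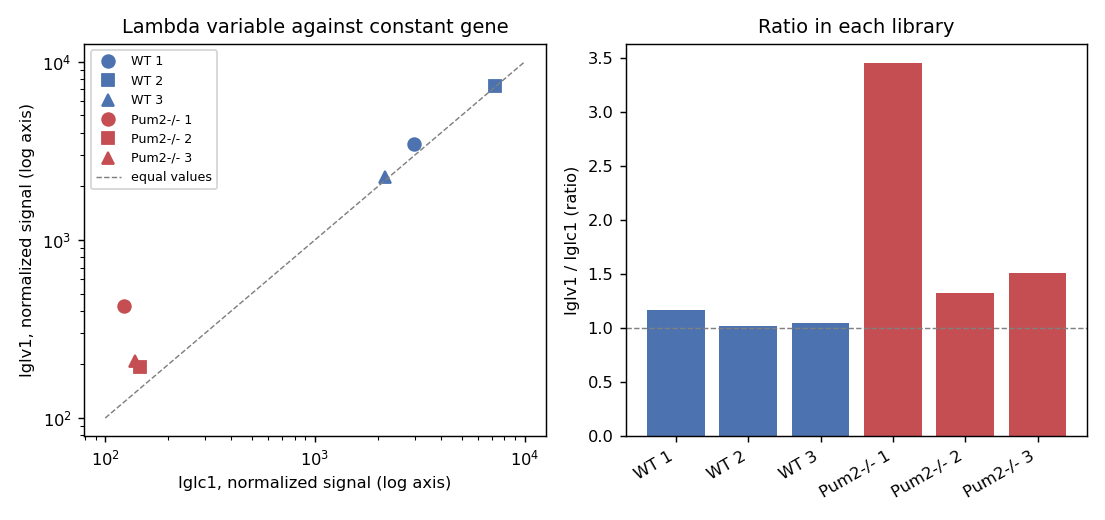
Left, normalized signal of Iglv1 against Iglc1 in each library on log axes, with the dashed line where both are equal. Right, the ratio of Iglv1 to Iglc1 in each library as bars, with WT in blue and Pum2-/- in red. WT libraries lie close to the line, at ratios of 1.02 to 1.16, and Pum2-/- libraries lie above it, at 1.33 to 3.46.

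Among the kappa genes that were lower in Pum2-/- mice, Igkv9-124 (ENSMUSG00000096632) had the least spread. Its signal was 202, 241 and 191 in WT replicates 1, 2 and 3, and 79.3, 33.7 and 37.4 in the Pum2-/- libraries. All WT libraries lay within a narrow band above the highest Pum2-/- library. Mean signal was 212 ± 26.2 (SD, n = 3) for WT and 50.1 ± 25.3 (SD, n = 3) for the knockouts, with a log2 difference of -2.16 (standard error 0.394). Libraries were also divided by the median of all genes above 0 in every library, or of those among them that are not immunoglobulins. The difference was then -3.18 or -3.02. The ratio of its highest to its lowest library was 1.26 in WT mice and 2.35 in Pum2-/- mice.

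Igkv1-132 (ENSMUSG00000096580) had a signal of 896 in WT replicate 1 and of 4.06 and 4.35 in WT replicates 2 and 3. In the Pum2-/- libraries it was at 1.96, 1.79 and 0.0813. The genotypes did not overlap, but WT replicate 1 held 98.7% of the signal summed over the 6 libraries, and the remaining values were all low. On the scale described above, the signal in WT replicate 2 corresponded to 4 steps and that in Pum2-/- replicate 1 to 2 steps. The log2 difference was -3.80 (standard error 2.52), and -1.33 without WT replicate 1, -5.06 without WT replicate 2 and -5.02 without WT replicate 3.

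Igkv3-3 (ENSMUSG00000094478) was at 36.7 and 25.2 in WT replicates 1 and 2 and was listed at 0 in WT replicate 3. The Pum2-/- libraries were at 0.979, 0 and 1.27, of which the first corresponded to 1 step. WT replicate 3 therefore lay with the Pum2-/- libraries. The log2 difference was -2.59 (standard error 1.70), -4.25 without WT replicate 3, -1.63 without WT replicate 1 and -1.90 without WT replicate 2.

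The kappa gene with the largest higher signal in Pum2-/- mice was Igkv1-99 (ENSMUSG00000076525). It was at 633, 129.8 and 108 in Pum2-/- replicates 1, 2 and 3, and at 11.2, 5.06 and 37.1 in WT replicates 1, 2 and 3. Every Pum2-/- library was above every WT library, with replicate 1 the highest. Mean signal was 290.2 ± 297 (SD, n = 3) for the knockouts against 17.8 ± 17.0 (SD, n = 3) for WT, with a log2 difference of 3.88 (standard error 1.12). The difference was 3.08 without Pum2-/- replicate 1, 3.27 without WT replicate 2 and 4.60 without WT replicate 3. The value in WT replicate 2 corresponded to 5 steps. Igkv1-132, of the same Igkv1 family and 74.3% identical to Igkv1-99, was lower in the same libraries, so these genes of 1 family stood on opposite sides. For Igkv1-132 that side rested largely on WT replicate 1, and its values in the remaining libraries were low.

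Igkv4-90 (ENSMUSG00000076533) had signals of 49.9, 14.0 and 44.6 across Pum2-/- replicates 1, 2 and 3. Its WT signals were 10.4, 1.02 and 7.38. The genotypes were separated by a small margin, since the lowest Pum2-/- library exceeded the highest WT library by 3.61. The lowest WT value corresponded to 1 step. The log2 difference was 2.50 (standard error 0.953), and 1.74 without WT replicate 2. When libraries were divided by the median of the genes analysed, with or without the immunoglobulin genes in that median, the genotypes overlapped for this gene.

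Igkv4-78 (ENSMUSG00000094315) was at 137 in Pum2-/- replicate 1 and at 1.48 and 2.15 in replicates 2 and 3. In WT mice it was at 1.91, 0.00134 and 0. The genotypes overlapped, and 96.1% of the summed signal lay in Pum2-/- replicate 1. The log2 difference was 2.84 (standard error 1.95), and 0.97 without that library, 3.87 without Pum2-/- replicate 2 and 3.70 without Pum2-/- replicate 3. Of the 8 genes, all had a mean of at least 10 over the 6 libraries, but 4 of them, Igkv4-90, Igkv4-78, Igkv3-3 and Igkv1-132, had a mean under 10 in 1 genotype.

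Summed, the 6 kappa genes overlapped between genotypes. The sum was 1159, 276 and 239.99 in WT replicates 1, 2 and 3 and 902, 181 and 194 in the Pum2-/- libraries, a log2 difference of -0.43 (standard error 1.05). Replicate 1 of each genotype was the high library. The direction of this difference rested on WT replicate 1, without which it was 0.29, and it was -1.18 without Pum2-/- replicate 1. With libraries divided by the same 2 medians as for Igkv9-124, of genes above 0 in every library, it was -1.46 or -1.30. The make-up of the sum within a library does not depend on such scaling, and the coding sequences of these genes differ little in length, from 352 to 362 bases. Igkv1-99 made up 70.2%, 71.8% and 55.8% of the sum in Pum2-/- replicates 1, 2 and 3, against 0.963%, 1.83% and 15.5% in the WT libraries. Igkv9-124 made up 87.2% and 79.7% in WT replicates 2 and 3 and 17.5% in WT replicate 1, where Igkv1-132 took 77.3%. In Pum2-/- libraries Igkv9-124 made up 8.79% to 19.3%. These are shares of the 6 genes analysed and not of all kappa transcripts, because the kappa constant gene Igkc and the other V genes were not analysed here.

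**Figure D3:**
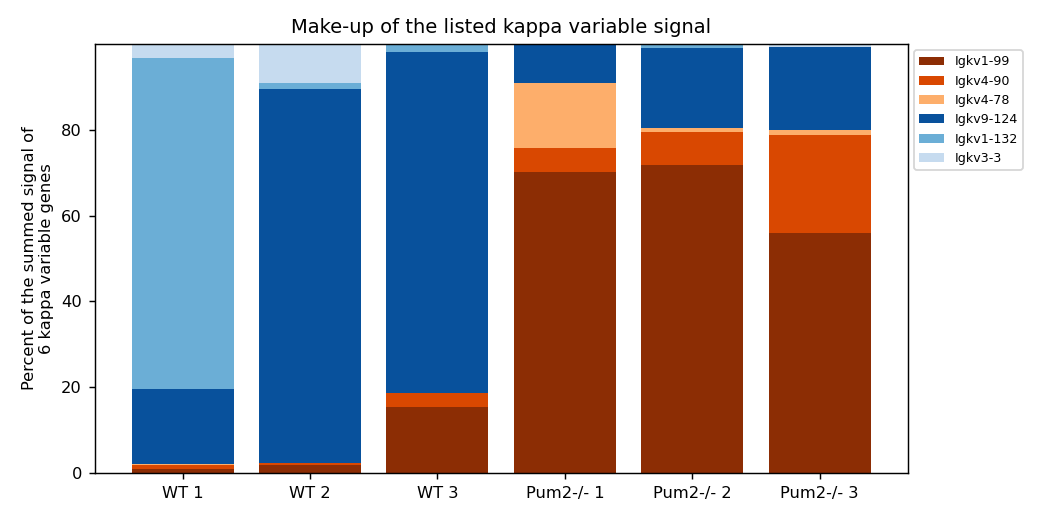
Percent of the summed normalized signal of the 6 kappa V genes taken by each gene in each library. Genes with higher means in Pum2-/- mice are in brown and orange and those with lower means in blue. Igkv1-99 takes 55.8% to 71.8% in Pum2-/- libraries, and the main gene in WT libraries is Igkv9-124 or, in replicate 1, Igkv1-132.

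Light chain genes tended to have much of their signal in 1 library. The highest of the 6 libraries held over 50% of a gene's summed signal for 6 of 8 light chain genes, 2 of 9 heavy chain genes and 9 of 51 genes that are not immunoglobulins. The median share was 56.8%, 42.2% and 39.2% in these groups. The highest library was Pum2-/- replicate 1 for the 3 genes with higher means in Pum2-/- mice, WT replicate 2 for Iglv1, Iglc1 and Igkv9-124, and WT replicate 1 for Igkv3-3 and Igkv1-132. The spread within a genotype on the log2(signal + 1) scale had a median pooled SD of 1.27 over the light chain genes and of 0.86 over all 68 genes. It was 1.73 over the 6 kappa genes, 0.70 over the 2 lambda genes and 0.88 over the heavy chain genes, so the larger spread lay in the kappa genes. The difference between the groups of genes was not tested, since the genes had been selected on these libraries.

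**Figure D4:**
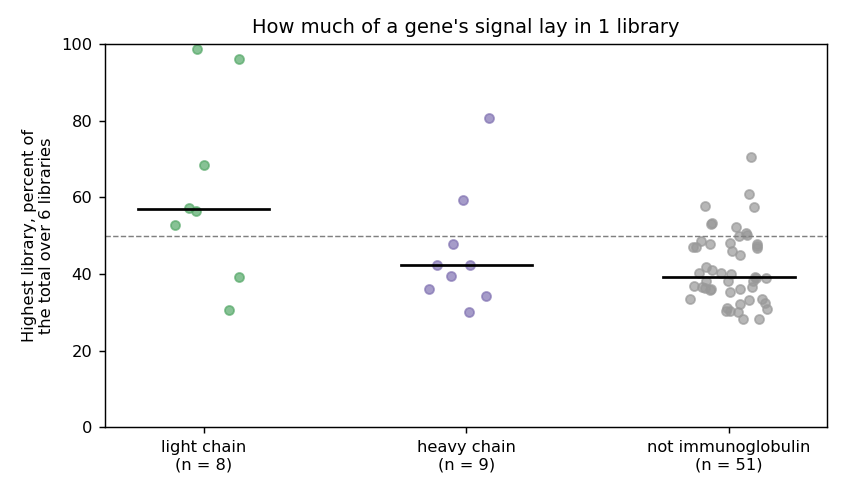
Share of each gene's signal, summed over 6 libraries, that lay in its highest library, in percent. Points are genes, black lines are medians of 56.8%, 42.2% and 39.2%, and the dashed line is at 50%, above which lie 6 light chain, 2 heavy chain and 9 other genes.

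The kappa genes were spread over much of their locus. GENCODE M21 annotates 160 Igkv genes on chromosome 6, and counted outward from the constant gene Igkc, Igkv3-3 was the 3rd, at 38.9 kb. The 3 genes with higher means in Pum2-/- mice lay in the middle, with Igkv4-78 the 90th at 1666 kb, Igkv4-90 the 104th at 1919 kb and Igkv1-99 the 116th at 2184 kb. Igkv9-124 was the 145th at 2784 kb and Igkv1-132 the 154th at 2966 kb, both with lower means. With 6 genes this order is given as a description. The genes lie at chr6:70686946-70687534 (Igkv3-3, plus strand), chr6:69059690-69060224 (Igkv4-78, minus strand), chr6:68807179-68807708 (Igkv4-90, minus strand), chr6:68541644-68542422 (Igkv1-99, plus strand), chr6:67942074-67942540 (Igkv9-124, minus strand) and chr6:67759700-67760413 (Igkv1-132, plus strand).

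To find the genes with the most similar profiles, each gene's mean was subtracted from its log2(signal + 1) values, and the root mean square difference over the 6 libraries was taken against the 67 other genes. All of them had been selected for the same contrast, so likeness within a direction is built into the list. Iglv1 and Iglc1 were each other's closest gene, at 0.60. Igkv1-99 was closest to the heavy chain V gene Ighv9-2, at 0.56, and Igkv4-90 to Serpina3g, a serine protease inhibitor, at 0.55. Igkv9-124 had the closest matches of all 8 genes, Spink1, a secreted trypsin inhibitor, at 0.26 and Clca4a at 0.27. Igkv1-132 and Igkv4-78 had no close match, with the nearest gene at 2.27 (Igkv3-3) and 1.55 (Tgtp1).

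The heavy chain genes, the partners of the light chains in an antibody, comprised 9 of the genes analysed and lie on chromosome 12. Pum2, at chr12:8674134-8752581, is on the same chromosome but far from the heavy chain genes, which lie within chr12:113269260-115604376. Of these, 3 were wholly above WT in Pum2-/- mice (44.1% of all 68 genes were), 5 were wholly below (42.6% of all genes) and 1 overlapped, so that 88.9% were separated, against 86.8% of all genes, with a median log2 difference of -2.36. Their summed signal was 2204 to 6546 in WT libraries and 623 to 1209 in Pum2-/- libraries. In WT libraries most of this sum came from Ighv2-2 (1739, 5267 and 1293 in replicates 1, 2 and 3) and Ighv7-1 (1547, 1094 and 673). It therefore says little about the other heavy chain genes, 3 of which were wholly above WT. As for the lambda genes, WT replicate 2 had the highest sum, through Ighv2-2, whereas Ighv7-1 was highest in WT replicate 1. Of the other lists examined, none of 6 B cell markers, 7 plasma cell markers, 6 colon epithelium markers, 3 macrophage markers or 4 genes of V segment joining and the surrogate light chain was among the genes analysed, so neither the tissue label nor the number of plasma cells could be checked. Of 12 antibody constant genes, Iglc1 and Ighe, the IgE heavy chain, were analysed, and both were among the 42.6% of all genes wholly below WT. Of 6 T and NK cell markers, the cytotoxic granule genes Gzma, Gzmb and Nkg7 were analysed, and all 3 were among the 44.1% of all genes wholly above WT. Their summed signal was 25.1 to 83.4 in WT libraries and 152 to 291 in Pum2-/- libraries, and its part in the light chain values was not tested.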

How the data were processed

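RNA-seq of 3 WT and 3 Pum2-/- colon libraries was analysed. Per the labels, the SMARTER mRNA-Seq chemistry was used on Trizol-isolated RNA. Aligner, counter, build, filter and normalization are not given in the sources used here. The authors deposited a normalized signal per gene and library in a table of 69 rows, all past the thresholds of their own comparison, of which 68 genes remained after 1 repeated Ensembl identifier was removed. Columns with the authors' own log2 fold changes and p-values, raw and adjusted, were left unused. All rows with symbols beginning Igkv, Iglv or Iglc were named, and the members and gene lists were chosen with earlier results of these data known.

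Differences were taken between group means of log2(signal + 1), with standard errors and no filter or test. Values near 0 (1e-09 or less) were set to 0. Sequences and positions came from GENCODE M21, and identity from global alignments in Biopython 1.88. No RefSeq promoter matched a member. Calculations used Python 3.11.15, numpy 2.4.6 and pandas 2.3.3 and were tested on simulated data. Alternatives were other scalings, a pseudocount of 0.1, ratios of means, a mean of at least 10, a replicate block and leaving out each library. Nothing says that libraries came from separate animals, so the SD may be partly technical.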

Additional observations from a re-analysis of the deposited data

How the results depend on the processing

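The direction of each of the 8 light chain genes was the same under every alternative run. The replicate block and the mean of at least 10, which removed none of the 8, could not change a direction. The genes had also been selected on these same libraries. Libraries were divided by the median of all genes above 0 in every library, or of those among them that are not immunoglobulins. This shifted the median gene by -0.91 or -0.77 on the log2 scale. The summed lambda signal became -5.24 or -5.08 against -4.21, and the summed kappa signal -1.46 or -1.30 against -0.43. Iglc1 moved to -5.75 or -5.59, Iglv1 to -4.93 or -4.77 and Igkv9-124 to -3.18 or -3.02. Both medians come from genes that the submitters kept for differing between genotypes, and genes at 0 in any library were left out. The first median was 12.6 to 20.8 in WT libraries and 29.8 to 33.7 in Pum2-/- libraries. How far the left-out genes bear on the scaled values was not tested. The number of separated light chain genes was 5 under both scalings against 6. The summed kappa signal reversed to 0.29 without WT replicate 1, the library with the high Igkv1-132 value. Leaving out each library in turn gave -1.18 to 0.29 for the summed kappa signal, -4.59 to -3.73 for the summed lambda signal, -3.24 (without WT replicate 3) to -1.48 (without WT replicate 1) for the median of the 8 genes, and 6 to 7 separated genes, although fewer libraries make overlap less frequent. The log2 ratio of Iglv1 to Iglc1 differed by 0.40 without Pum2-/- replicate 1 to 1.09 without Pum2-/- replicate 2, an alternative chosen after seeing the data. As log2 ratios of group means, Igkv4-78, Igkv3-3 and Igkv1-132 moved to 6.20, -4.78 and -7.88. In a replicate block, 7 of the 8 genes had the same sign in all 3 pairs, and the mean differences cannot change. Deviations of same-numbered libraries correlated across genes at 0.11, 0.042 and 0.27, and 4 of 6 libraries correlated best with their own number. These values do not settle whether same-numbered libraries belong together. The sources used here state no pairing, so none was assumed. Depth is unknown, so the precision of the low signals of Igkv1-132, Igkv3-3 and Igkv4-78 was not estimated.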
